A study of Mus musculus with 8 samples.

Results

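The 10 genes described here, Acly, Acaca, Fasn, Scd1, Scd2, Elovl1, Elovl5, Elovl6, Fads1 and Fads2, encode the enzymes that build, desaturate and elongate long-chain fatty acids. They were chosen by name from the 24346 genes of the expression table, as the core of this pathway. Earlier results of these data were known when they were chosen. RNA-seq was performed on mouse iOLs (induced immature oligodendrocytes), with 4 Med23+/+ and 4 Med23-/- libraries. OPCs (oligodendrocyte precursor cells) were purified from brains at postnatal day 7 by selection for CD140a, the PDGFRα protein, after plates that retain microglia and endothelial cells. The cells of all 8 libraries were expanded in PDGF-AA and NT-3, and differentiated for 1 day in 15 nM T3 (the active thyroid hormone) with 10 ng/mL CNTF. The Med23-/- cells came from Med23 fl/fl mice that carry Olig1-Cre, which deletes Med23, a subunit of the Mediator complex, in the oligodendrocyte lineage. The study names Med23 fl/fl littermates as controls of this cross, and the labels do not say whether the Med23+/+ cells carry floxed alleles or Cre. The labels do not say whether the replicates of a genotype came from separate animals or cultures, and p-values measure only the spread between these libraries.

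De novo fatty acid synthesis starts in the cytosol. ATP citrate lyase makes acetyl-CoA from citrate, acetyl-CoA carboxylase makes malonyl-CoA, and fatty acid synthase joins these units into palmitate with electrons from NADPH. In the endoplasmic reticulum, elongases lengthen the chain, and desaturases place double bonds into saturated chains (SCD) or into polyunsaturated ones (FADS). Oligodendrocytes are known for a high demand for these lipids, since the myelin they wrap around axons is mostly lipid and is rich in very-long-chain species.

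All 10 genes had a lower mean in Med23-/- iOLs, and 8 of the 10 were called lower and 0 higher (limma, adjusted p under 0.05). At an unadjusted p under 0.05 the counts were also 8 and 0. Elovl1 and Scd1 were at 47.8% and 50.5% of their Med23+/+ mean, Scd2 and Elovl6 at 58.9% and 60.0%, and the synthesis enzymes Acaca, Acly and Fasn at 69.6%, 72.0% and 72.2%. Elovl5 was at 82.9%, close to the threshold, and Fads1 and Fads2, at 84.5% and 84.4%, were not called. Among all 12328 genes tested, 14.1% were called lower and 15.9% higher. The median log2 fold change of the 10 genes, Med23-/- over Med23+/+ on the log2(FPKM + 1) scale, was -0.49, beside -0.01 for all genes tested. FPKM scales the fragments of a gene by its transcript length and by library size, so it allows levels of different genes to be set side by side. In 7 of the 10 genes every Med23-/- library lay below every Med23+/+ library, which was so for 15.3% of the genes tested. Elovl1 was the 1 gene of the 10 past 2-fold lower, as were 1.75% of all genes tested.

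**Figure D1:**
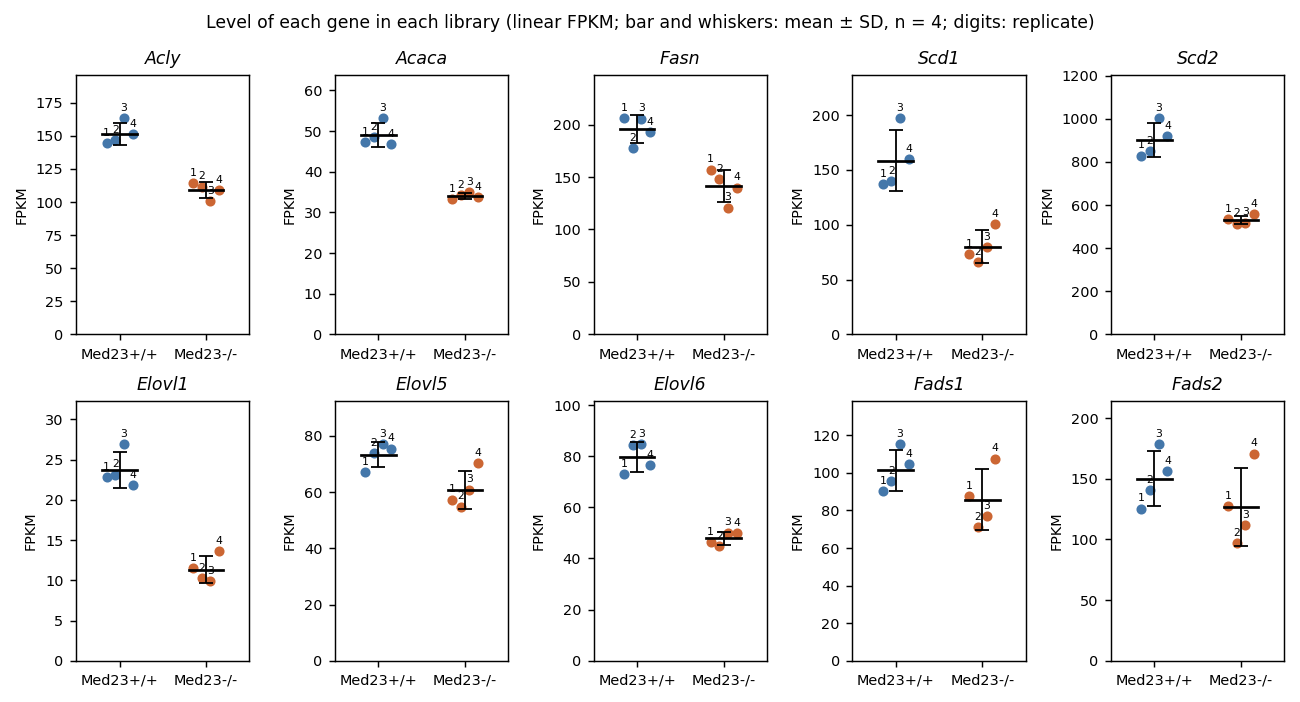
FPKM of each of the 10 genes (vertical axis, linear, from 0) in the 4 Med23+/+ and 4 Med23-/- libraries. Each point is 1 library with its replicate number, and the black bar with whiskers is the mean ± SD (n = 4); the genotypes are apart in 7 panels and overlap for Elovl5, Fads1 and Fads2, where replicate 4 is the highest of the Med23-/- libraries.

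Med23 itself checked the labels. Its level was 12.7, 12.2, 12.6 and 12.6 FPKM in Med23+/+ replicates 1 to 4 and 8.40, 7.93, 8.49 and 8.21 FPKM in Med23-/- replicates 1 to 4. The Med23-/- libraries were all lower, and Med23 reads remained in them; the gene-level value does not separate the deleted part of the transcript from the rest. Correlations between libraries over the genes tested (log2(FPKM + 1), Pearson's r) ran from 0.897 to 0.967, and no pair of libraries shared more than 49 identical values among those genes. The first principal component (42.4% of the variance) separated the genotypes, and the second (15.6%) separated replicates 1 and 2 from replicates 3 and 4 of both genotypes. The labels name no batch. The table holds no read counts, so the depth of the libraries is unknown.

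Marker genes of cell stages and of other cells also differed between the genotypes, and their part in the results was not tested. Of the 12 oligodendrocyte markers, 8 were tested and 8 were lower, with a summed level of 918 to 1124 FPKM in Med23+/+ and 263 to 448 FPKM in Med23-/- libraries. Among them were Mag, Mbp, Myrf, Mog, Cnp and Ugt8a, each past 2-fold, and Cldn11, which was not; Aspa, a marker of mature cells, was listed at 0 in every library. Of the 8 OPC markers, Pdgfra and Cspg4 were higher and Gpr17 lower, each by more than 2-fold, and Sox10 was lower by less. Pdgfra was at 105 to 141 FPKM in Med23+/+ and 325 to 347 FPKM in Med23-/- libraries. Cspg4 was at 34.3 to 51.5 and 91.7 to 118 FPKM, and Gpr17 at 657 to 721 and 187 to 481 FPKM. The summed levels of the 8 markers overlapped, at 2491 to 2753 and 2323 to 2785 FPKM, with Olig1 the most abundant. The sum does not show these opposite shifts. Of the 8 neuron markers, 7 were higher in Med23-/-, with sums of 217 to 236 FPKM in Med23+/+ and 301 to 379 FPKM in Med23-/- libraries, most of it from Map2; Rbfox3, Snap25, Syt1 and Stmn2 were past 2-fold. The call of Syt1 was lost without Med23+/+ replicate 2, Med23+/+ replicate 3 or Med23-/- replicate 4 (adjusted p 0.0502 to 0.0585) and that of Map2 without Med23+/+ replicate 4 (adjusted p = 0.0555). The astrocyte markers summed to 55.6 to 113 and 35.6 to 62.7 FPKM, with Fgfr3, Gfap and Aqp4 lower by more than 2-fold and Slc1a2 higher; Gfap was not called without Med23-/- replicate 1 (adjusted p = 0.0525). Microglia markers summed to at most 2.37 FPKM (P2ry12 the highest), endothelial markers to at most 3.16 FPKM (Kdr, which was higher in Med23-/-, a call lost in 6 alternatives, among them those without Med23+/+ replicate 2, 3 or 4, with adjusted p from 0.0555 to 0.0916) and fibroblast and pericyte markers to at most 17.1 FPKM, in Med23-/- replicate 1 (Col1a1). In bulk RNA, fewer cells of a type and less RNA per cell cannot be told apart.

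The genes lie on 5 chromosomes of the mouse genome (GENCODE vM21, mm10). Fads2 (chr19:10062765-10101746, minus strand) and Fads1 (chr19:10182888-10196877, plus strand) are neighbours, as are Scd2 (chr19:44293674-44306864, plus strand) and Scd1 (chr19:44394455-44407879, minus strand). Acly (chr11:100476353-100528000, minus strand), Acaca (chr11:84129672-84401651, plus strand) and Fasn (chr11:120805846-120824547, minus strand) share chromosome 11. Elovl6 lies at chr3:129532355-129638495, Elovl1 at chr4:118428093-118432953 and Elovl5 at chr9:77917364-77984519, all on the plus strand. Promoter windows of 300 bases, from 250 before to 50 after a gene's start, were found in the RefSeq table (GRCm38.p6) for 7 of the 10 genes, in 8 windows. Scd1, Scd2 and Fads1 have no entry there. The 150 bases before the start are shown for Elovl1, which has windows for 2 starts and the largest fold difference by the values above. They are also shown for both synthesis enzymes with a window at the 5′ end of the gene, and for Fads2, which was not called. The Fads2 start used here lies inside the gene span given above, so the stretch shown is within the gene. Capitals mark GC boxes (GGGCGG or its complement CCGCCC, the core bound by Sp1-family factors) and CCAAT boxes (CCAAT or ATTGG, the core bound by NF-Y), and each sequence reads 5′ to 3′ along its gene.
Elovl1, first start (chr4:118427943-118428092, plus strand): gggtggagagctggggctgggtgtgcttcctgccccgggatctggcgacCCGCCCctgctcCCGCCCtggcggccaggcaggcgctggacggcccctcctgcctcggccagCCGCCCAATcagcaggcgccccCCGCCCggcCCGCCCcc
Elovl1, second start (chr4:118429551-118429700, plus strand): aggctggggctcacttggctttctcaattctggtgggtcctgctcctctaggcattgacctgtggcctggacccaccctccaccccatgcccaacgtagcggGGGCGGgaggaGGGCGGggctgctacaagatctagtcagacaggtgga
Acly (chr11:100528001-100528150, minus strand): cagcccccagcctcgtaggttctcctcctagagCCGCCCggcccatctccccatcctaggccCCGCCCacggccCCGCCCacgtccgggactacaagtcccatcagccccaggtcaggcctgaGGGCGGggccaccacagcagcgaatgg
Fasn (chr11:120824548-120824697, minus strand): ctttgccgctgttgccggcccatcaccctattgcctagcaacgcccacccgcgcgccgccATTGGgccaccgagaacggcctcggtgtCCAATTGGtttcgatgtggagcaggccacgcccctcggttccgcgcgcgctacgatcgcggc
Fads2 (chr19:10101504-10101653, minus strand): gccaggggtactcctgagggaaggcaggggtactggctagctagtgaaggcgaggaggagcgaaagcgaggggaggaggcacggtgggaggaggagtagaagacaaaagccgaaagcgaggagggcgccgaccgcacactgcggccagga

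Over the whole 300-base windows and both strands, Elovl1 held 5 GC boxes at its first start and 2 at its second, and Acly held 4. Fads2 held 1, which lies further upstream than the stretch shown. Fasn held 3 CCAAT boxes and no GC box; 2 of the 3 overlap in CCAATTGG. Elovl1 held 1 CCAAT box at its first start, which overlaps a GC box, Elovl5 held 2, and Acly held 1 after its start. The windows of Acaca (an internal start) and Elovl6 held neither. GC boxes were in 4 of these 8 windows and in 35.7% of all 32851 promoter windows of this length, and CCAAT boxes in 4 of 8 and in 37.4%. The E box CACGTG was in 1 window, that of Elovl5, and in 7.15% of all windows. The sterol-element core TCACNCCAC was in 0 of the 8 windows and in 1.24% of all windows, which says only that these letters are not there. These matches are descriptions of sequence, and binding was not measured here.

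Acly encodes ATP citrate lyase, which supplies cytosolic acetyl-CoA. Its level was 145, 147, 164 and 151 FPKM in Med23+/+ replicates 1 to 4 and 114, 112, 101 and 109 FPKM in Med23-/- replicates 1 to 4. The lowest Med23+/+ library stood above the highest Med23-/- library. The means were 151 ± 8.55 and 109 ± 5.78 FPKM (SD, n = 4), and the log2 fold change was -0.47 (SE 0.08, limma adjusted p = 0.00158).

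Acaca encodes acetyl-CoA carboxylase 1, the enzyme of malonyl-CoA formation and the committed step of synthesis. Its level was 47.3, 48.6, 53.2 and 46.9 FPKM in Med23+/+ and 33.3, 34.3, 35.0 and 33.7 FPKM in Med23-/- replicates 1 to 4. The Med23-/- libraries lay close together, with an SD of 0.742 FPKM, and all of them were below the Med23+/+ libraries. The log2 fold change was -0.51 (SE 0.07, limma adjusted p = 0.000609). Of the 50-base windows of Acaca transcripts, 30.4% also occur in transcripts of other annotated genes (Gm5182 first), so that reads from part of the gene could be shared between them. Its relative Acacb, the mitochondrial form of the enzyme, was at 0.516 to 0.800 FPKM in Med23+/+ and 0.277 to 0.307 FPKM in Med23-/- libraries, under the minimum of 1 FPKM for testing.

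Fasn encodes fatty acid synthase. Its level was 206, 178, 206 and 193 FPKM in Med23+/+ and 157, 148, 121 and 140.0 FPKM in Med23-/- replicates 1 to 4. The genotypes did not overlap, and Med23-/- replicate 3 was the lowest. The log2 fold change was -0.47 (SE 0.10, limma adjusted p = 0.00593). For these first 3 enzymes the differences were of like size, from -0.47 to -0.51 on the log2 scale, and an exact permutation test gave each p = 0.0286, the smallest that 4 libraries against 4 allow (two-sided).

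Scd1 and Scd2 encode stearoyl-CoA desaturases, which make oleate and palmitoleate from saturated chains. Scd2 was the most abundant of the 10 genes in every library. It was at 829.5, 852, 1005 and 920.5 FPKM in Med23+/+ and at 534, 514, 519 and 557 FPKM in Med23-/- replicates 1 to 4. The means, 902 ± 78.8 and 531 ± 19.1 FPKM, placed it 72nd and 130th by level among the 12328 genes tested. Its log2 fold change was -0.76 (SE 0.09, limma adjusted p = 0.000392).

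Scd1 was at 137, 139.7, 198 and 159.6 FPKM in Med23+/+ and at 73.4, 65.8, 80.0 and 101 FPKM in Med23-/- replicates 1 to 4. Replicate 3 was the highest of the Med23+/+ libraries and replicate 4 the highest of the Med23-/- libraries, and the genotypes did not overlap. The means were 158 ± 28.0 and 79.9 ± 14.9 FPKM (SD, n = 4), and the log2 fold change was -0.98 (SE 0.15, limma adjusted p = 0.00128). Scd1 made up 14.1% to 16.4% of the summed FPKM of both desaturases in Med23+/+ and 11.3% to 15.3% in Med23-/- libraries, ranges that overlap, so the larger fold difference of Scd1 was not separated from that of Scd2. The transcripts of both genes share 4.56% (Scd1) and 3.97% (Scd2) of their 50-base windows with other genes. Of the shared windows, 65.0% of those of Scd1 occur in Scd2 and 74.9% in Scd3, and 66.8% of those of Scd2 occur in Scd1 and 62.7% in Scd3; a window can occur in several genes.

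Elovl1 encodes the elongase of saturated and monounsaturated very-long-chain fatty acids, the kind that goes into myelin sphingolipids. It was the least abundant of the 10 genes and the one that differed most. Its level was 22.8, 23.1, 26.9 and 21.8 FPKM in Med23+/+ and 11.5, 10.2, 9.92 and 13.6 FPKM in Med23-/- replicates 1 to 4. The log2 fold change was -1.01 (SE 0.11, limma adjusted p = 0.000188), and its 95% interval, -1.25 to -0.77, holds the 2-fold limit. By level it was 3658th among the genes tested in Med23+/+ and 6622nd in Med23-/- libraries. The exons of Elovl1 overlap those of Cdc20, on the opposite strand, over 53 of 2726 bases, and the sources used here do not state whether strand was used in counting. Cdc20 was higher in Med23-/- libraries, at 39.2 to 80.3 FPKM, than in Med23+/+ libraries, at 17.2 to 37.4 FPKM, the direction opposite to that of Elovl1; it was looked up after the overlap was seen.

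Elovl6 encodes the elongase that takes palmitate to stearate. It was at 72.9, 84.5, 84.7 and 76.6 FPKM in Med23+/+ and at 46.4, 44.9, 50.1 and 49.9 FPKM in Med23-/- replicates 1 to 4. The lowest Med23+/+ library was well above the highest Med23-/- library. The log2 fold change was -0.72 (SE 0.08, limma adjusted p = 0.000196). A predicted gene on the opposite strand, Gm35986, overlaps its exons over 34 bases.

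Elovl5 encodes the elongase of polyunsaturated chains. It was at 67.1, 73.8, 77.1 and 75.5 FPKM in Med23+/+ and at 57.4, 54.8, 60.9 and 70.3 FPKM in Med23-/- replicates 1 to 4. Med23-/- replicate 4 lay above Med23+/+ replicate 1, so the genotypes overlapped. The log2 fold change of -0.27 (SE 0.09) had a limma adjusted p of 0.0489, and the exact permutation test of this gene gave p = 0.0571 (two-sided). Leaving out any one of Med23+/+ replicates 2, 3 and 4 or Med23-/- replicates 1, 2 and 3 ended the call, with adjusted p from 0.0816 to 0.122. Elovl6 stood at 1.01 to 1.14 times the level of Elovl5 in Med23+/+ libraries and at 0.709 to 0.823 times in Med23-/- libraries, so the order of these elongases by FPKM differed between the genotypes; this ratio was chosen after the values were seen and was not tested.

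**Figure D2:**
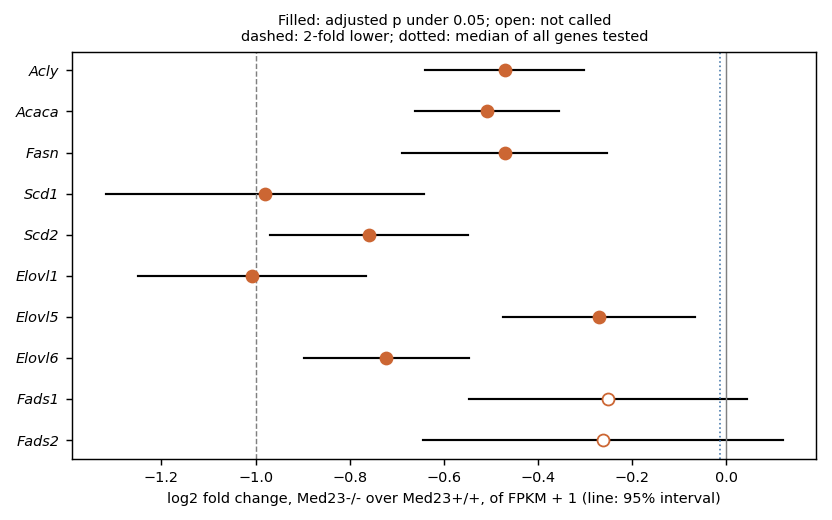
Log2 fold change (Med23-/- over Med23+/+, log2(FPKM + 1), horizontal axis) of each of the 10 genes, with its 95% interval from limma as a line. Filled points are called at adjusted p under 0.05; Elovl1 is furthest left at -1.01, and the intervals of Fads1 and Fads2 include 0.

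Fads1 and Fads2 encode the delta-5 and delta-6 desaturases of polyunsaturated fatty acids. Fads1 was at 90.4, 95.6, 115 and 105 FPKM in Med23+/+ and at 87.6, 71.0, 77.0 and 108 FPKM in Med23-/- replicates 1 to 4. Fads2 was at 125, 141, 179 and 156 FPKM in Med23+/+ and at 128, 96.9, 112 and 171 FPKM in the Med23-/- replicates. The genotypes overlapped for both genes, with Med23-/- replicate 4 above 3 of the 4 Med23+/+ libraries in each case. The log2 fold changes were -0.25 for Fads1 (95% interval -0.55 to 0.04, limma adjusted p = 0.182) and -0.26 for Fads2 (-0.65 to 0.12, limma adjusted p = 0.281). These intervals hold 0 and also hold the estimates of Acly, Acaca and Fasn, so the spread of these libraries does not set the values of Fads1 and Fads2 apart from either. Without Med23-/- replicate 4 the log2 fold changes were -0.37 for Fads1 and -0.42 for Fads2, and both genes were called (adjusted p = 0.0334 and 0.0481). Fads2 was at 1.39 to 1.55 times the level of Fads1 in Med23+/+ and at 1.36 to 1.59 times in Med23-/- libraries; the same libraries were high or low for both genes.

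The order of the 10 genes by level was similar in both genotypes. In Med23+/+ libraries it ran from Scd2 through Fasn, Scd1, Acly, Fads2, Fads1, Elovl6, Elovl5 and Acaca to Elovl1. The ranges of Fasn, Scd1, Acly and Fads2 overlapped from neighbour to neighbour, and so did those of Elovl6 and Elovl5. In Med23-/- libraries it ran from Scd2 through Fasn, Fads2, Acly, Fads1, Scd1, Elovl5, Elovl6 and Acaca to Elovl1, and the ranges from Fasn to Elovl5 overlapped from each gene to the next. Scd2 and, at the other end, Acaca and Elovl1 were apart from their neighbours in both genotypes. Scd2 alone made up 47.6% to 48.3% of the summed FPKM of the 10 genes in Med23+/+ and 41.2% to 44.7% in Med23-/- libraries.

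The genes also varied in common between libraries of one genotype. Med23+/+ replicate 3 was the highest of its genotype for 9 of the 10 genes (all but Fasn), with a median of 0.14 above the genotype mean on the log2(FPKM + 1) scale. Med23-/- replicate 4 was the highest of its genotype for 6 genes (Scd1, Scd2, Elovl1, Elovl5, Fads1 and Fads2), also with a median of 0.14. Med23+/+ replicate 1 was the lowest for 7 genes and Med23-/- replicate 2 for 6. The summed FPKM of the 10 genes was 1743, 1783, 2107 and 1906 in Med23+/+ replicates 1 to 4 and 1242, 1152, 1165 and 1352 in Med23-/- replicates 1 to 4, with no overlap between the genotypes. Within replicates 1 and 2, which the second component separated from the rest, all 10 genes were lower in Med23-/- libraries, by -0.23 to -1.02 on the log2 scale. Within replicates 3 and 4 all 10 were lower as well, by -0.22 to -0.999. Fasn differed by -0.33 in the first pair of replicates and by -0.61 in the second, and Acly by -0.36 and -0.58.

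**Figure D3:**
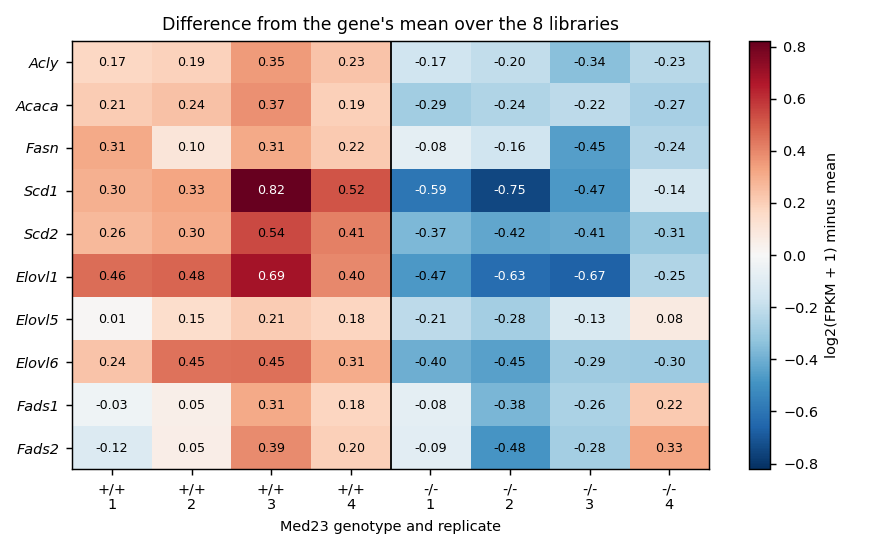
Difference of each gene (rows) from its own mean over the 8 libraries (columns, by Med23 genotype and replicate), in log2(FPKM + 1), printed and coloured red above and blue below the mean. The Med23+/+ side is red and the Med23-/- side blue except for Elovl5, Fads1 and Fads2, which are above their mean in Med23-/- replicate 4, and for Fads1 and Fads2 in Med23+/+ replicate 1, which are just below it.

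The enzymes around the core differed gene by gene. Of the 10 other synthesis genes tested, 3 were lower and 1 higher. Slc25a1, the carrier that exports citrate from mitochondria to ATP citrate lyase, was at 75.1 to 100.2 FPKM in Med23+/+ and 44.7 to 52.4 FPKM in Med23-/- libraries (log2 fold change -0.82, limma adjusted p = 0.000348). Mid1ip1, an activator of acetyl-CoA carboxylase, and Acss2, which makes acetyl-CoA from acetate, were also lower, by -0.73 and -0.39. Thrsp (Spot 14), a relative of Mid1ip1, was higher by 0.74, at 0.430 to 0.919 and 1.55 to 2.18 FPKM. The mitochondrial synthesis genes Mcat, Oxsm, Mecr and Cbr4 were not called. Of the 7 genes listed under NADPH supply, 5 were lower (Me2, Idh1, Me3, Pgd and Idh2) and 0 were higher (0 also at an unadjusted p under 0.05, limma). All 7 had negative values, from -0.63 for Me2 to -0.11 for Me1, with a median of -0.39. Me1 and G6pdx were not called (limma adjusted p = 0.402 and 0.220). The list joins cytosolic and mitochondrial enzymes, and the supply of NADPH to fatty acid synthase was not measured.

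The partners that work with elongases and desaturases were not called. In the elongation cycle, 5 genes were tested (Tecr, Hsd17b12, Hacd1, Hacd2 and Hacd3) and 0 were called by limma in either direction, also 0 at an unadjusted p under 0.05, with values from -0.31 for Tecr to -0.06 for Hacd2. Tecr, the reductase of the last step, was at 205, 201, 261 and 248 FPKM in Med23+/+ and at 187, 149.8, 153 and 267 FPKM in Med23-/- replicates 1 to 4, again with replicate 4 far above the other Med23-/- libraries; without it Tecr was called (log2 fold change -0.48, adjusted p = 0.0195). Of the 5 tested genes that pass electrons to the desaturases, 0 were called by limma, with 1 (Cyb5b) at an unadjusted p under 0.05, from -0.37 for Cyb5b (adjusted p = 0.081) to 0.05 for Cyb5r1, whose sign turned under quantile normalization and without Med23+/+ replicate 4. Cyb5b was called without Med23+/+ replicate 1 (adjusted p = 0.0327) and in 3 other alternatives, with array weights among them. Other elongases went both ways. Elovl7, a further elongase of very-long saturated chains, was at 15.0, 17.9, 21.8 and 17.2 FPKM in Med23+/+ and at 6.70, 9.28, 8.61 and 5.72 FPKM in Med23-/- replicates 1 to 4 (log2 fold change -1.16, limma adjusted p = 0.000553), lower by more than 2-fold. Elovl2, an elongase of polyunsaturated chains, was higher, at 1.01 to 2.33 and 3.27 to 4.51 FPKM (log2 fold change 0.86, limma adjusted p = 0.00413). Elovl4, Fads3 and Fads6 were not called; Fads3 was close to the threshold and was called lower in 7 alternatives, 1 of them without Med23+/+ replicate 2 (adjusted p 0.0138 to 0.0496).

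Genes that activate, carry and use fatty acids were likewise mixed. Of 10 acyl-CoA synthetases and fatty acid transport proteins tested, 4 were lower and 2 higher. Acsl3 was the lowest (log2 fold change -0.98, 88.7 ± 9.38 against 44.5 ± 4.09 FPKM, n = 4), and Slc27a1 was higher by more than 2-fold (1.05, 4.57 ± 1.24 against 10.3 ± 0.918 FPKM). Slc27a1 was the 1 synthetase gene called higher without Med23+/+ replicate 1, 2 or 3 or Med23-/- replicate 1, 3 or 4. Of 9 binding and uptake genes tested, 2 were lower and 2 higher, from -0.78 for Fabp5 to 0.59 for Fabp3, which was not called; leaving out any one of Med23+/+ replicates 1, 3 and 4 ended the calls of both higher genes, Dbi and Fabp7, and leaving out Med23+/+ replicate 2 or Med23-/- replicate 2, 3 or 4 ended 1 of them. In beta oxidation, the breakdown pathway, 7 of 22 tested genes were lower and 0 higher (0 also at an unadjusted p under 0.05, limma), with a median of -0.17, from -0.62 for Cpt1a to 0.09 for Decr1. Without Med23+/+ replicate 4 only 4 were called. Of 30 glycerolipid assembly genes, 7 were lower and 6 higher, with a median of -0.05, and without Med23-/- replicate 4 only 3 were called higher. The ends were Agpat4, an acyltransferase, at -1.26 (50.03 ± 3.95 against 20.3 ± 1.29 FPKM), and Pcyt1b, an enzyme that makes CDP-choline for phosphatidylcholine, at 0.92. The share of all genes tested that was higher by more than 2-fold was 2.98%.

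Cholesterol synthesis, the other large lipid pathway of these cells, was closest to the fatty acid genes by these counts. Of its 20 enzymes, 16 were lower and 0 higher (0 also at an unadjusted p under 0.05, limma), with a median of -0.48 beside -0.49 for the 10 fatty acid genes. The smallest difference was that of Acat2, at -0.16 on the log2 scale. Under quantile normalization 10 of these enzymes were called lower.

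**Figure D4:**
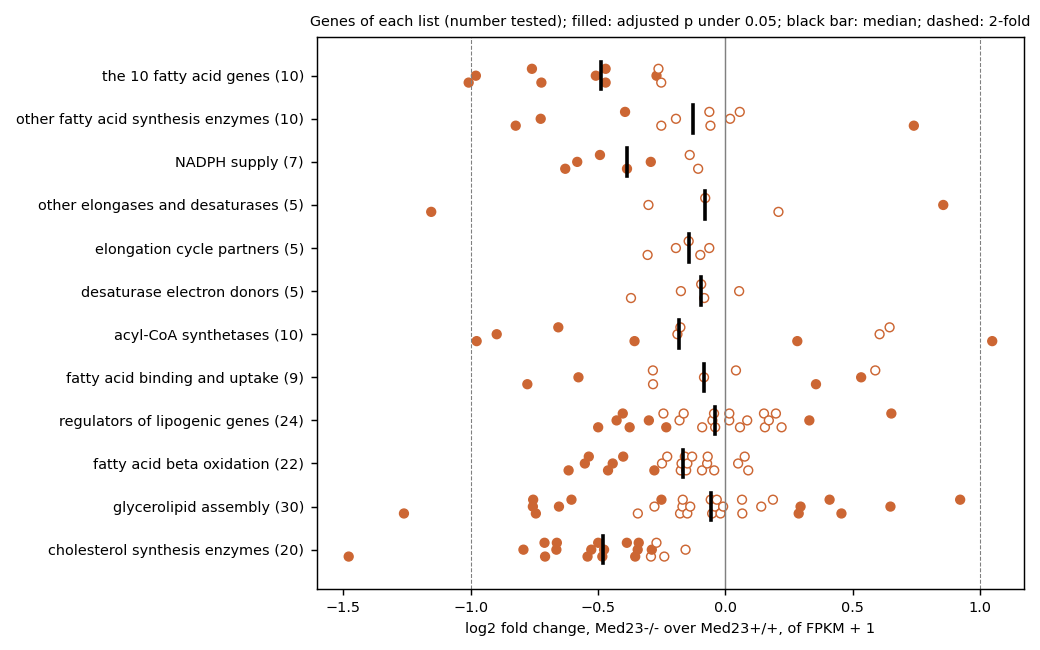
Log2 fold change (Med23-/- over Med23+/+, log2(FPKM + 1), horizontal axis) of every tested gene of the fatty acid group and of 11 other lists (rows, number tested in brackets). Filled points are called at adjusted p under 0.05 and the black bar is the median, which lies at -0.49 for the 10 fatty acid genes, -0.48 for cholesterol synthesis and -0.39 for NADPH supply, and between -0.18 and -0.04 for the other lists.

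Of 24 tested transcription factors and sensors of lipogenic genes, 16 were not called, or 66.7%, beside 70.03% of all genes tested. Srebf1, which encodes SREBP1, the main activator of fatty acid synthesis genes, was at 22.0, 16.8, 21.4 and 20.5 FPKM in Med23+/+ and at 17.6, 17.5, 16.7 and 18.7 FPKM in Med23-/- replicates 1 to 4. The genotypes overlapped through Med23+/+ replicate 2, and the log2 fold change of -0.18 was not called (adjusted p = 0.175, limma); without that library it was -0.26 and was called (adjusted p = 0.0351). Srebf2, which encodes the SREBP2 activator of cholesterol genes, was at 103 to 120 and 102 to 131 FPKM (log2 fold change 0.06, limma adjusted p = 0.693). Scap, the escort protein of SREBPs, was at -0.04 and changed sign under quantile normalization and without Med23-/- replicate 3. Insig1, which retains SCAP in the endoplasmic reticulum, was at 103 to 115 FPKM in Med23+/+ and 87.9 to 97.2 FPKM in Med23-/- libraries (log2 fold change -0.23, limma adjusted p = 0.0373), a call that was lost without any one of 6 of the 8 libraries (all but replicate 4 of each genotype) and under quantile normalization. The LXR gene Nr1h2 was at -0.09 (adjusted p = 0.601), while Nr1h3, at 0.170 to 0.533 FPKM, and Mlxipl (ChREBP), at 0.0146 to 0.164 FPKM, were too low to test. Sp1 was at 19.7 to 22.6 FPKM in Med23+/+ and 21.8 to 29.8 FPKM in Med23-/- libraries, a difference of 0.22 on the log2 scale (limma adjusted p = 0.119), and Sp3 at 0.16 (adjusted p = 0.391).

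Of the 24 regulators tested, 6 were lower and 2 higher, with a median of -0.04. The lowest was Prkaa1, the alpha-1 catalytic subunit of AMPK, which restrains lipid synthesis, at 15.7 to 17.8 FPKM in Med23+/+ and 10.1 to 12.4 FPKM in Med23-/- libraries (log2 fold change -0.50, limma adjusted p = 0.00215). The highest was Ppargc1a, a coactivator of mitochondrial genes, at 0.65. The others called were Mlx, Thra (a thyroid hormone receptor), Ppard, Mbtps2 and Insig1, which were lower, and Usf1, which was higher. Leaving out Med23+/+ replicate 1, Med23+/+ replicate 3 or Med23-/- replicate 2 left 3 regulators called lower.

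The limit of 2-fold was met by 1 of the 10 genes in the full set, and this count rests on single libraries. It was 2, with Scd1 added, without Med23+/+ replicate 1, Med23+/+ replicate 2 or Med23-/- replicate 4. It was 0 without Med23+/+ replicate 3, Med23-/- replicate 2 or Med23-/- replicate 3, since Elovl1 and Scd1 both lie near the limit. Acly, Acaca, Fasn, Scd1, Scd2, Elovl1 and Elovl6 were called lower in all 17 alternative fits, and their direction held in each.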

How the data were processed

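RNA-seq gave 8 libraries of mouse iOLs, 4 Med23+/+ and 4 Med23-/-. RNA was extracted with Trizol and sequenced on the Illumina X-10 platform. After FastQC and cutadapt, the authors aligned reads to mm10 with TopHat2, and they deposited FPKM values per library from Cuffdiff under its fragment-bias (-b) and multi-read (-u) corrections; tool versions, annotation, normalization and use of strand are not given in the sources used here. Columns with the authors' own comparisons (fold changes, p-values) and genotype means were not used, and 0 library columns were left out. The table names 24346 genes by symbol; all 10 genes matched, and older symbols of list genes were matched through RefSeq synonyms (Hsd17b8 was not analysed here).

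The 12328 genes whose mean reached 1 FPKM were tested on log2(FPKM + 1) with limma 3.58.1 in R 4.3.3 (lmFit, eBayes with trend, all 8 libraries, genotype as the only term), with Benjamini-Hochberg adjustment over all genes tested and a threshold of 0.05; the limit of 2-fold is the authors' criterion. A fold change with a pseudocount of 1 understates that of low genes. For single genes, FPKM were also permuted exactly between genotypes (two-sided). The fit was tested on simulated data. Of 100 genes changed by 0.75 on the log2 scale 78 were called, and of 100 changed by 1.5, 98 were called. Among the unchanged genes 8 were called. Smaller changes, such as those of Acly, Acaca, Fasn, Elovl5, Fads1 and Fads2, were not simulated. Since FPKM are not counts, depth is unknown; values under 0.3 FPKM put the worth of 1 read at 0.732 to 1.01 relative to Med23+/+ replicate 1, and 15941 to 16469 genes were above 0 per library.

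The 10 genes and the lists were chosen with earlier results of these data known. Named from each list were the lowest and the highest tested gene, those called past 2-fold, 9 set regulators and, among markers, the most abundant gene; other names were added after their values were seen, and some genes that meet this rule are left out of the text. Gene positions, exon overlaps and shared 50-base transcript windows come from GENCODE vM21, and promoters from RefSeq. Alternatives were a pseudocount of 0.1, no filter on low values, a minimum of 5 FPKM, scaling by median ratios or by quantile normalization, array weights, a fit without variance trend, a replicate block, a term for replicates 3 and 4 against 1 and 2, and 8 fits that each leave out 1 library. Python 3.11.15, pandas 2.3.3, numpy 2.4.6, scipy 1.17.1 and matplotlib 3.10.9 made the tables and figures.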

Additional observations from a re-analysis of the deposited data

How the results depend on the processing

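The direction of the 10 genes held in all 17 alternatives, and 158 of their 170 alternative values stayed on the same side of the threshold. The number called lower, 8 with all libraries, was 7 or 8 under the other settings and 7 to 10 when 1 library was left out, and 10 only without Med23-/- replicate 4. Elovl5 lost its call in 10 alternatives (adjusted p 0.055 to 0.182), among them quantile normalization, where its log2 fold change was -0.16. The number past 2-fold, 1 with all libraries, was 0 under quantile normalization, 2 with array weights and 0 to 2 when 1 library was left out. Of all genes, 1957 were called higher, and 1281 with a minimum of 5 FPKM, where fewer genes (9434) were tested. Replicate numbers are shared by the genotypes, and whether they pair the libraries is not settled here. Deviations of same-numbered libraries correlated at 0.13, -0.10, -0.03 and 0.16 for replicates 1 to 4. The second principal component nevertheless separated replicates 1 and 2 from replicates 3 and 4 of both genotypes. With the replicate block Insig1 and Kdr lost their calls (adjusted p = 0.0559 and 0.0605), Cyb5b, Fads3 and Col1a1 were called (0.0213, 0.0388 and 0.011), and 8 of the 10 genes were called lower, and 1835 genes in all were lower and 2085 higher. Directions reversed only for values near 0 that were not called. Under quantile normalization Cyb5r1 was at -0.101, Scap at 0.0231 and Olig1 at 0.0373. When 1 library was left out, Cyb5r1 ran from -0.0362 to 0.109, Scap from -0.108 to 0.0397 and Olig1 from -0.200 to 0.0989. The causes were not tested. Without read counts, the depth behind each value is unknown, and for Fads1 and Fads2 the spread between libraries (SE 0.13 and 0.17) limits the comparison. Of 22 sets of 4 libraries (the 10 genes and Med23 in each genotype), 0 held a library that stood apart by Dixon's test.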
